A study of Mus musculus with 17 samples.

Results

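The genes described here encode semaphorins, their plexin and neuropilin receptors, Eph receptors and ephrins. They were chosen by symbol (Sema3 to Sema7 with a letter, Plxn, Nrp1, Nrp2, Epha, Ephb, Efna and Efnb), which found 53 genes among the 18193 genes with a named probe set on the array, and 124 probe sets among 45101. Of these 53 genes, 48 passed the filter on dim signals and were tested together with all other tested genes, 14504 in total. The 5 that were too dim to test were Epha5, Epha6, Epha8, Epha10 and the antisense transcript Plxna4os1, which carries the prefix of the plexin genes but encodes no plexin.

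Semaphorins are secreted (class 3) or membrane-bound (classes 4 to 7) proteins that were first described as cues that turn growing axons. Plexins are their signalling receptors, and neuropilins are the co-receptors through which most class 3 semaphorins reach plexins. Ephrins are ligands held on the cell surface, anchored by a lipid (ephrin-A) or by a membrane span (ephrin-B), and they signal both into the cell that carries the Eph receptor and back into their own cell. In bone, both systems are known for exchanges between osteoclasts and osteoblasts, in which ephrin-B2 with EphB4, semaphorin 4D with plexin B1, and semaphorin 3A with neuropilin 1 are the best described pairs.

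The series holds 17 Affymetrix arrays, 9 of mouse skeletal stem cells (mSSC) and 8 of bone, cartilage and stromal progenitors (mBCSP), the population that descends from them. Both were sorted from the femora of C57BL/6 female mice that were ovariectomized (OVX) or had the same operation with the ovaries left in place (sham) at 8 weeks of age. After 6 weeks, at 14 weeks of age, the femur was broken and pinned, and cells were taken from the callus on day 7, or from the shaft of femora that had not been broken. A further arm carried a continuous-release pellet of 0.18 mg of 17β-estradiol (E2) from the time of ovariectomy. By their labels the arrays were 4 of sham callus, 2 of OVX callus, 2 of OVX + E2 callus, 3 of sham uninjured bone and 2 of OVX uninjured bone. In 2 further callus arrays the title and source gave OVX while the treatment entry gave sham with fracture, and in another 2 the treatment entry gave fracture alone. Those 4 arrays entered the comparison of callus with uninjured bone and, as groups of their own, the comparison of the cell populations. They formed no arm of the main comparisons of ovary surgery, but were in those fits as groups of their own and shared the estimate of the spread. Alternative settings placed the 2 arrays of conflicting labels in OVX or in sham callus. The titles were written in 3 ways, here called the surgery-cell set (6 arrays, all callus), the surgery-injury-cell set (7 arrays) and the cell-injury set (4 arrays), and this was a term of each fit. No label tied an array to separate animals, so p-values measure the spread between these arrays, which may in part be technical, and arrays are bulk samples, in which fewer cells of a type and less RNA per cell cannot be told apart.

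The sort discarded cells carrying CD45, Ter119 or Tie2. Ptprc, which encodes CD45, nevertheless had a log2 signal between 13.79 and 14.74 on the 5 uninjured arrays, against 6.58 to 13.53 on the 12 callus arrays. The mean of 7 leukocyte markers was 12.8 to 13.6 on the uninjured arrays and 9.24 to 12.3 on the 6 callus arrays of the same sets, and that of 10 cartilage markers was 8.98 to 12.6 and 12.8 to 14.6. Eng, which encodes CD105, the marker that separates mBCSPs from mSSCs, was 8.40 to 9.97 in mBCSP arrays and 7.36 to 8.42 in mSSC arrays. Spearman correlations between arrays over all tested genes ranged from 0.591 to 0.977, and the mBCSP callus array of unstated surgery reached no more than 0.841 with any other.

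The promoters of 4 members that the results below turn on are shown as the 250 bases before the transcription start, from RefSeq on GRCm38.p6, each 5′ to 3′ on the strand of the gene. Epha3, Plxnb2 and Efna1 were higher in callus, and Plxnc1 was lower. Capitals mark the GC box GGGCGG on either strand, the core of the site that Sp family factors bind. Epha3 lies at chr16:63864176-63864425 on the minus strand, Plxnb2 at chr15:89180789-89181038 on the minus strand, Efna1 at chr3:89280952-89281201 on the minus strand and Plxnc1 at chr10:94944846-94945095 on the minus strand.
Epha3: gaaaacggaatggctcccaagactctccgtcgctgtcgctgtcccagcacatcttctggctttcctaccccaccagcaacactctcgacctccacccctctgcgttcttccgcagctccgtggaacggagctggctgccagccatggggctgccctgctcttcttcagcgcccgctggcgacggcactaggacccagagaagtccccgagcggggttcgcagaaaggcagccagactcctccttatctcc
Plxnb2: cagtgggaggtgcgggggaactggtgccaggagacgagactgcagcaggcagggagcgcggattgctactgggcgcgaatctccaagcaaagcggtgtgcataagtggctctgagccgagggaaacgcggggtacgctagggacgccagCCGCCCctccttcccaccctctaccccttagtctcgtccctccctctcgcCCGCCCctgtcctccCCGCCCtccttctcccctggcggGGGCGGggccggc
Efna1: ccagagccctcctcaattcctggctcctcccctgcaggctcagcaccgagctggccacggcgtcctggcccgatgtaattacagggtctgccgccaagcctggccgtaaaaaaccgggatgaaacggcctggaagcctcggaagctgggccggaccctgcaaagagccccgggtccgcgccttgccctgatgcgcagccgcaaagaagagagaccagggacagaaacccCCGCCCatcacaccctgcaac
Plxnc1: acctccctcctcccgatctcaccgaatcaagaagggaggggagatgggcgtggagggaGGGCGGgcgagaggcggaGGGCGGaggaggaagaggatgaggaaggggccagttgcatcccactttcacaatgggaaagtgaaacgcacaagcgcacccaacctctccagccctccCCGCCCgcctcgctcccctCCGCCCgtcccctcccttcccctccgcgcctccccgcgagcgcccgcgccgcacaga

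The Plxnb2 window held 4 GC boxes, the Plxnc1 window 4, the Efna1 window 1 and the Epha3 window none. Chromosome 18, which holds Sema6a, was left out of these counts. RefSeq start sites on the other chromosomes were found for 46 of the 53 genes, in 60 windows. Of these windows 46 (76.7%) held a GC box, against 32.7% of the 32851 windows of all genes. Those windows covered 27025 genes, not only those on the array. The median GC content of members' windows was 64.2%, against 52.4% for all windows. A TATA box (TATAAA, either strand) was in 1 member window (1.7%, all windows 12.4%). The RUNX core TGTGGT was in 8 member windows (13.3%, all windows 14%) and the nuclear receptor half-site AGGTCA also in 8 (13.3%, all windows 14%). Of the 19 windows of genes higher in callus, none held TGTGGT and 2 held AGGTCA, and of the 29 windows of tested genes that were not called, 7 and 5 did. These matches describe letters in a short window and say nothing of binding.

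In callus, 22 of the 48 tested genes differed from uninjured bone at an adjusted p under 0.05 (45.8%), 19 of them higher and 3 lower. Epha3 rose the most, Plxnb1, Plxnb2, Sema3d, Sema5a, Efna1 and Sema3c rose by between 4.11-fold and 7.56-fold in the fit, and Plxnc1, Sema4a and Sema4d fell. The comparison asked what the cells of the healing fracture expressed that those of intact bone did not, over 6 callus and 5 uninjured arrays of the surgery-injury-cell and cell-injury sets, with population and set as terms. Over all genes 32.3% were called, 17.5% higher and 14.8% lower, so much of the measured transcriptome moved between these arrays. The median log2 fold change of the 48 genes was 0.71, against 0.02 over all genes, and 39 of them had a positive and 9 a negative difference. At an unadjusted p under 0.05 there were 29, against 42.8% of all genes. Without the mBCSP callus array of unstated surgery, which stood apart from the others, 29 members and 41.1% of all genes were called.

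**Figure D1:**
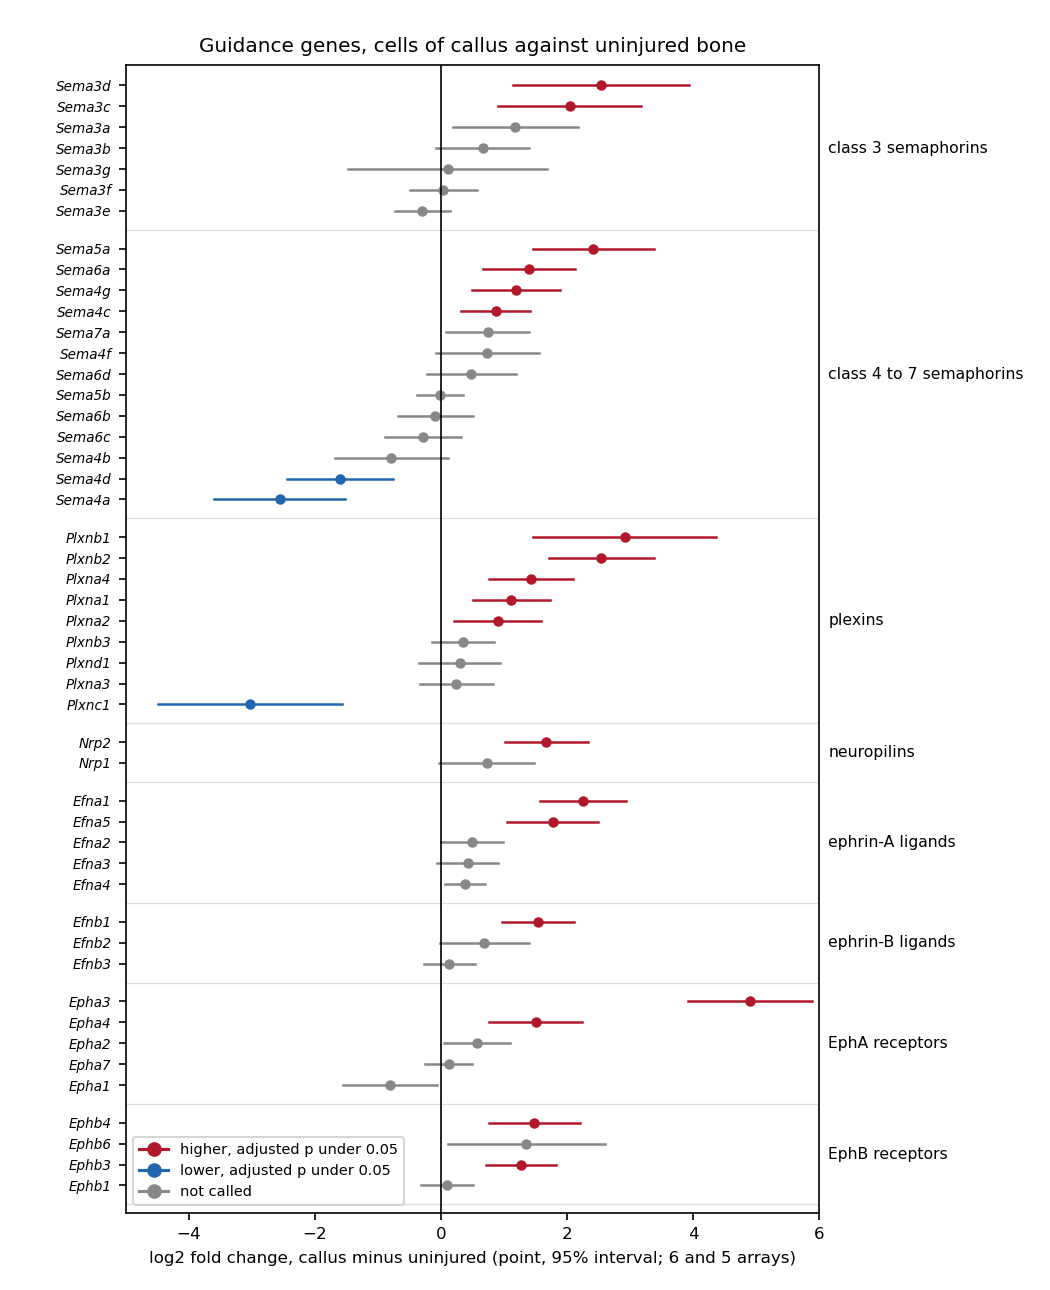
Log2 fold change between callus and uninjured bone for each of the 48 tested guidance genes, grouped by family, with its 95% interval (6 callus and 5 uninjured arrays). The 19 red points are called higher, led by Epha3 at 4.91, and the 3 blue points, Plxnc1, Sema4a and Sema4d, are called lower.

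Among the Eph receptors, Epha3, Epha4, Ephb3 and Ephb4 rose, and none of the 9 tested receptors was called lower at its brightest probe set. Epha3, a receptor for ephrin-A ligands, read 9.15, 11.07 and 11.90 (lowest, median and highest log2 signal) on the 6 callus arrays. On the uninjured arrays it read 5.95 on 4 and 6.13 on 1. The value 5.95 is the floor set at the 20th percentile of all signals, so Epha3 was at or near the bottom of the measured range in every uninjured array and well inside it in every callus array, including those of the surgery-cell set (10.64 to 11.34). Its log2 fold change was 4.91 (SE 0.45, adjusted p = 6.67e-05), which is limited by the floor in uninjured bone. Over 27 alternative settings the difference ran from 3.15 to 6.13, and the other 3 probe sets of Epha3 gave 2.93 to 4.34, all called.

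Epha4, which binds ligands of both ephrin classes, read 7.55, 9.52 and 10.22 in callus and 7.26, 7.42, 7.78, 8.10 and 8.17 in uninjured bone. The groups overlapped through the mBCSP callus array of unstated surgery alone, at 7.55. The difference was 1.5 (SE 0.33, adjusted p = 0.00607). Ephb4, the receptor of ephrin-B2, read 7.85, 8.66 and 10.41 in callus and 6.66, 7.04, 7.21, 7.34 and 8.26 in uninjured bone, a difference of 1.48 (SE 0.33, adjusted p = 0.00569). Its highest value in each tissue was that of an mBCSP array. Ephb3, a receptor for ephrin-B ligands, read 8.21 to 9.25 in callus and 7.17 to 7.64 in uninjured bone without overlap (difference 1.27, SE 0.25, adjusted p = 0.00324). The other Eph receptors did not pass the test. Ephb6, whose kinase domain is inactive, ranged from the floor to 9.33 in callus against 6.26 to 6.62 in uninjured bone (1.35, SE 0.57, adjusted p = 0.0901). Epha2, Epha7 and Ephb1 lay at 0.57, 0.12 and 0.09, and Epha1 was the one Eph receptor with a negative difference, -0.81 (SE 0.34, adjusted p = 0.0906). The fit of every probe set called 1 of the 3 probe sets of Epha1 lower, at -1.04. Epha1 itself was called lower without the mBCSP callus array of unstated surgery (-1.04, SE 0.29, adjusted p = 0.0176), in the mSSC arrays alone (-1.23, adjusted p = 0.0468) and in the surgery-injury-cell arrays alone (-1.33, adjusted p = 0.012), while it lay at 0.03 in the cell-injury arrays alone.

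Of the 8 ephrins, Efna1, Efna5 and Efnb1 rose and none was called lower. Efna1, a ligand of EphA receptors, read 9.11, 9.91 and 10.29 in callus and 6.86, 6.89, 7.38, 7.82 and 8.61 in uninjured bone, so the groups did not overlap. The log2 fold change was 2.25 (SE 0.31, adjusted p = 0.000522), and its second probe set gave 2.62. Efna5, another ligand of EphA receptors, EphA3 among them, read 7.97, 9.19 and 9.37 in callus and 6.68, 6.98, 6.98, 7.53 and 7.95 in uninjured bone. That separation was narrow, 7.97 against 7.95, and the difference was 1.77 (SE 0.33, adjusted p = 0.00226). Efnb1, the X-linked ephrin whose loss causes craniofrontonasal syndrome, read 9.48, 10.18 and 10.46 in callus and 8.22, 8.24, 8.46, 8.53 and 9.0 in uninjured bone (difference 1.54, SE 0.26, adjusted p = 0.00153). Efnb2, the partner of EphB4, was not called at its brightest probe set (0.69, SE 0.32, adjusted p = 0.123), whereas the fit of every probe set called 1 of its 4, at 1.32. Efna2, which the study names, read 8.25, 8.71 and 9.06 in callus and 7.98, 8.02, 8.03, 8.35 and 8.76 in uninjured bone. Its difference of 0.49 (95% interval 0.00 to 0.98, adjusted p = 0.115) did not pass the test, and its second probe set gave 0.08. Efna3, Efna4 and Efnb3 lay between 0.13 and 0.42. Efna1, Efna3 and Efna4 are neighbours in RefSeq with no coding gene between them, and Efna1 alone of the 3 was called.

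**Figure D2:**
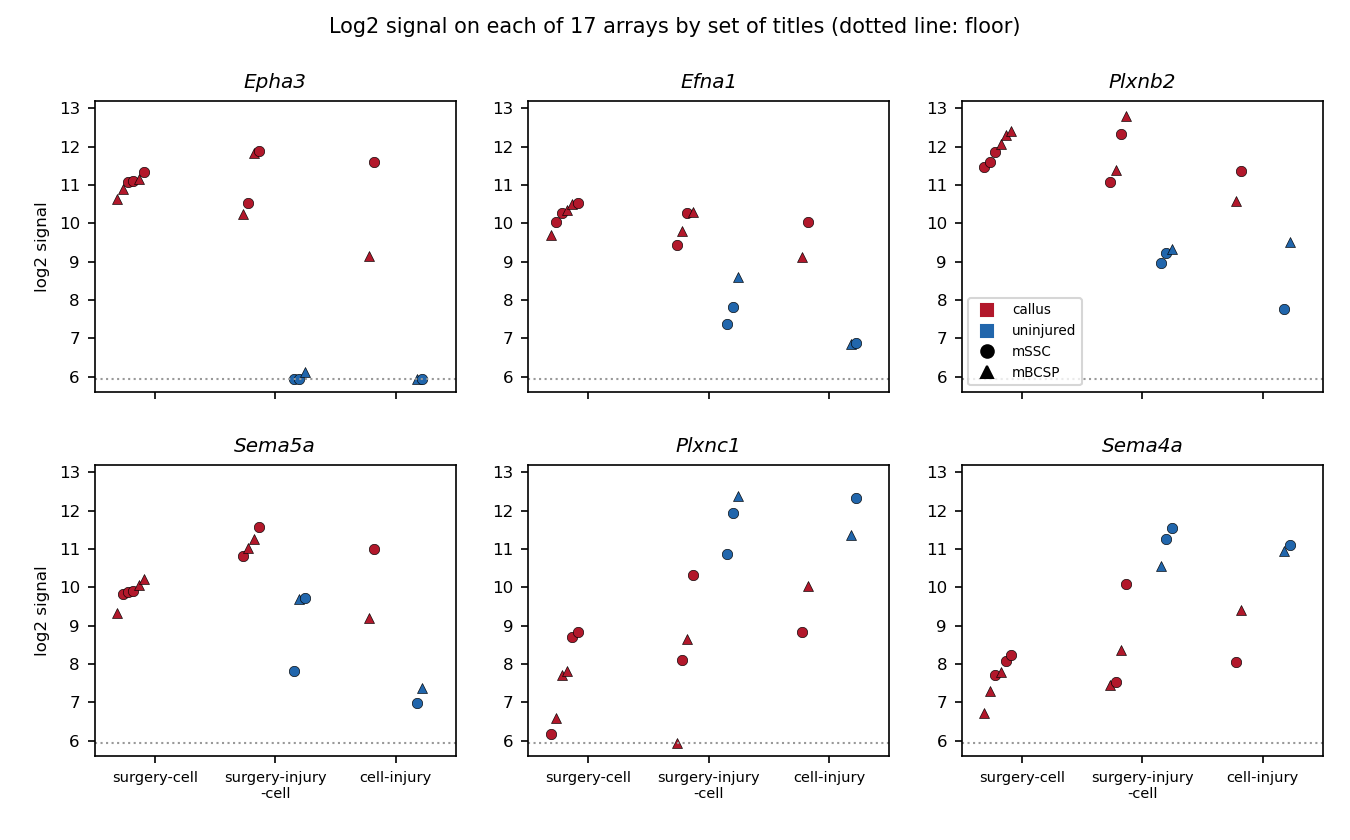
Log2 signal of 6 guidance genes on each of 17 arrays, by set of titles, with callus in red, uninjured bone in blue, circles for mSSC and triangles for mBCSP; the dotted line is the floor. Epha3 sat at or near 5.95 on every uninjured array and at 9.15 or above on every callus array, whereas Plxnc1 and Sema4a were higher on the uninjured arrays.

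Plexins gave 5 genes higher and 1 lower of 9 tested. Plxnb2, a receptor for class 4 semaphorins, read 10.58, 11.38 and 12.80 in callus and 7.76, 8.95, 9.23, 9.32 and 9.50 in uninjured bone. Every callus array lay above every uninjured array, also those of the surgery-cell set, and the difference was 2.54 (SE 0.38, adjusted p = 0.000761). Plxnb1, the receptor of semaphorin 4D, read 6.17, 10.24 and 11.27 in callus and 6.60, 6.75, 7.08, 7.09 and 7.11 in uninjured bone. The value of 6.17 came from the mBCSP callus array of unstated surgery, below every uninjured array, while the other 5 were at 9.998 or above. The difference over all 11 arrays was 2.92 (SE 0.66, adjusted p = 0.00653) and without that array 3.62 (SE 0.31). A second probe set of Plxnb1 gave 0.67 and was not called.

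The A plexins, which work with neuropilins as receptors of class 3 semaphorins, moved less. Plxna1 read 8.40 to 9.70 in callus and 7.72 to 8.26 in uninjured bone, with a difference of 1.12 (SE 0.28, adjusted p = 0.0101), but its other probe set gave 0.07. Plxna4 differed by 1.43 (SE 0.31, adjusted p = 0.00492) and its other probe set by 0.38. Plxna2 lay closest to the threshold, at 0.90 (SE 0.31, adjusted p = 0.0478), and it was called in 7 of 27 alternative settings. Plxna3 (0.24), Plxnb3 (0.35) and Plxnd1 (0.29), the last a receptor of semaphorin 3E, were not called. Plxnc1, the receptor of semaphorin 7A, went the other way. It read 5.95, 8.74 and 10.33 in callus and 10.88, 11.37, 11.93, 12.35 and 12.39 in uninjured bone, a difference of -3.03 (SE 0.66, adjusted p = 0.00551), and 5 of its 6 probe sets were called lower.

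Of the neuropilins, Nrp2 rose and Nrp1 did not pass the test. Nrp2, a co-receptor for semaphorins 3C and 3F and for vascular growth factors, read 10.38, 10.87 and 11.62 in callus and 7.60, 8.64, 9.12, 9.86 and 10.10 in uninjured bone, with no overlap. The difference was 1.67 (SE 0.30, adjusted p = 0.00202), and all 4 of its probe sets were called, from 0.84 to 2.90. Nrp1 ranged from 10.38 to 12.71 in callus and from 10.26 to 11.91 in uninjured bone (0.72, SE 0.34, adjusted p = 0.129).

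Among the secreted class 3 semaphorins, Sema3c and Sema3d rose, 2 of 7. Sema3d read 10.004, 10.56 and 11.87 in callus and 5.95, 5.95, 9.41, 9.48 and 9.74 in uninjured bone. The uninjured arrays thus fell into 2 at the floor and 3 just below the lowest callus array of this comparison. The difference was 2.54 (SE 0.64, adjusted p = 0.0106). The callus arrays of the surgery-cell set, which were not in this comparison, read at most 9.42 for Sema3d. That lies below the uninjured values of 9.48 and 9.74, so across all 17 arrays callus and uninjured bone overlapped. Sema3c, required for the outflow tract of the heart, read 9.64, 10.53 and 10.65 in callus and 5.95, 6.63, 8.69, 9.51 and 10.38 in uninjured bone, overlapping at the top (2.04, SE 0.52, adjusted p = 0.0115). Sema3a, which shields bone by restraining osteoclasts, differed by 1.18 (SE 0.45, adjusted p = 0.066) and was not called. Sema3b, Sema3e, Sema3f and Sema3g lay between -0.29 and 0.66, and the 3 probe sets of Sema3b ran from -0.82 to 0.66, none called.

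The membrane-bound semaphorins moved in both directions, with 4 of 13 higher and 2 lower. Sema5a, which carries thrombospondin repeats and binds plexin B3, read 9.20, 11.03 and 11.58 in callus and 6.97, 7.38, 7.81, 9.69 and 9.73 in uninjured bone. The 2 highest uninjured values were the OVX arrays, and the difference was 2.42 (SE 0.44, adjusted p = 0.00209). Sema6a, a ligand of A plexins, differed by 1.40 (SE 0.33), Sema4g by 1.19 (SE 0.32) and Sema4c by 0.87 (SE 0.25), with adjusted p of 0.00822, 0.0153 and 0.0211. Sema4a, which acts on T cells, read 7.47, 8.21 and 10.09 in callus and 10.57, 10.96, 11.12, 11.27 and 11.56 in uninjured bone, with no overlap (-2.56, SE 0.47, adjusted p = 0.00226). Sema4d, known as CD100 on lymphocytes and as an osteoclast product that restrains osteoblasts, read 8.46, 8.63 and 10.14 in callus and 9.92, 10.64, 10.75, 10.92 and 11.30 in uninjured bone (-1.61, SE 0.38, adjusted p = 0.00829). Its second probe set gave -0.65 and was not called. The remaining 7, among them Sema7a (0.74) and Sema4b (-0.79), did not pass the test.

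Sema4d and its receptor Plxnb1 thus differed in opposite directions between the same arrays, as did Plxnc1 (-3.03) and its ligand Sema7a (0.74, not called). Epha3 and the ligands Efna1 and Efna5 were higher together. Over the 11 arrays, 10 members lay wholly higher in callus with no overlap and 2 wholly lower, where 9.23% and 7.96% of all genes did. Across all 17 arrays the counts were 9 and 2, against 8.45% and 7.03% of all genes. Of the called members, 17 had more than 1 tested probe set, 49 in all. All 49 had the sign of the gene and 41 were called, beside 30.7% of all probe sets tested. The 49 include the brightest set of each gene, which gave its sign and its call.

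**Figure D3:**
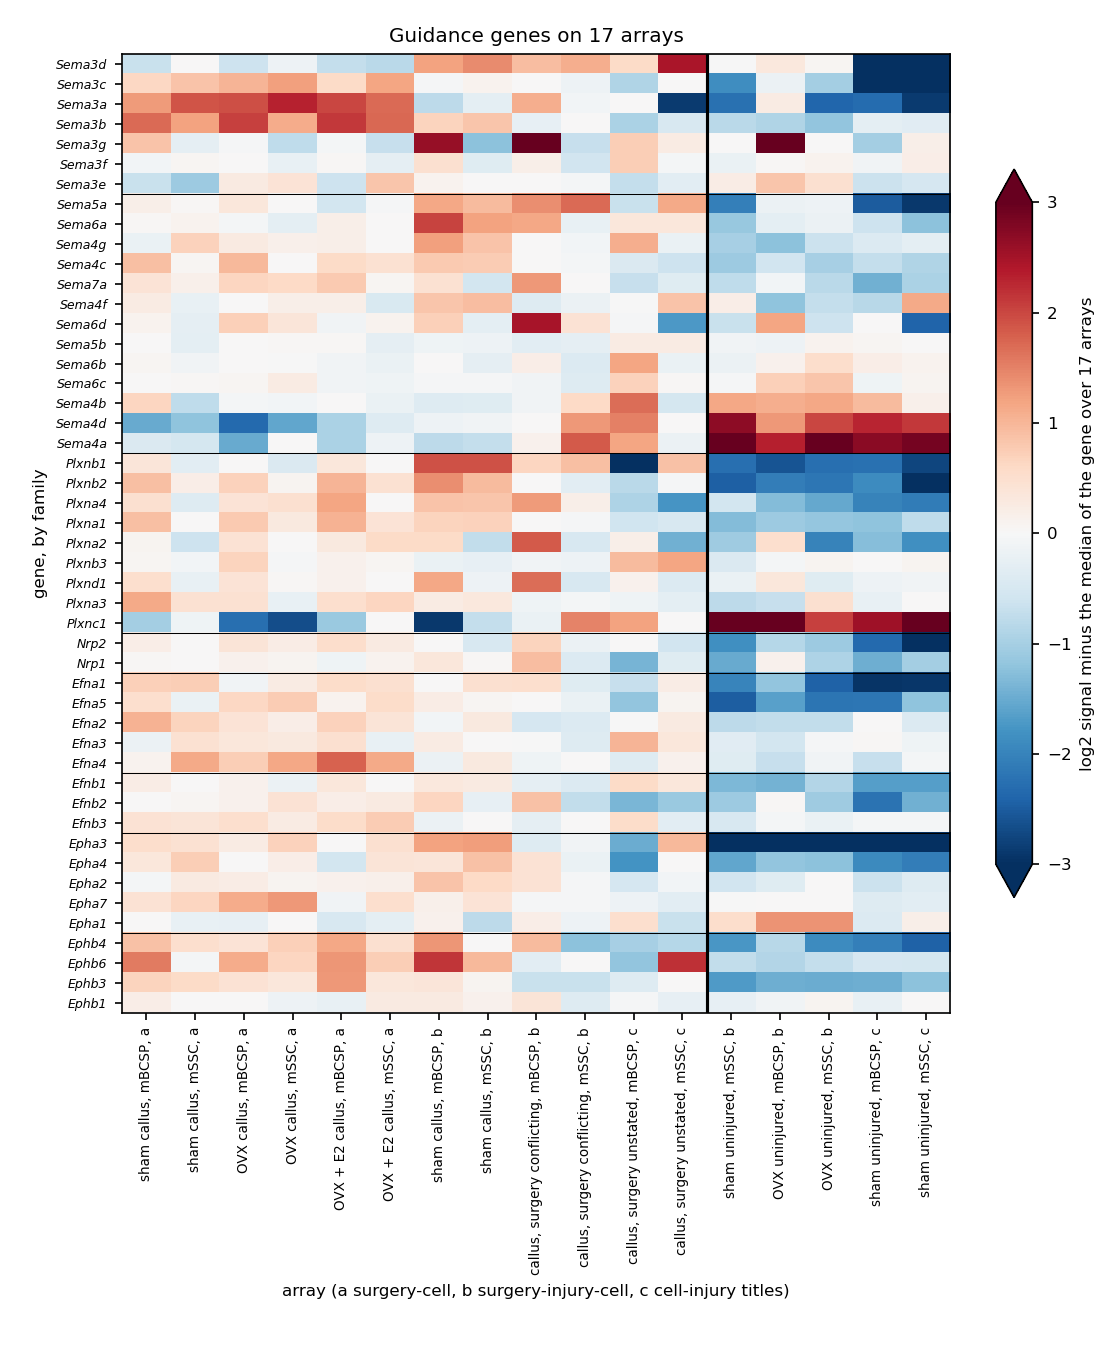
Log2 signal of the 48 tested guidance genes on 17 arrays, each row shown relative to the median of its gene and rows grouped by family; the thick line parts the 12 callus arrays from the 5 uninjured ones. Epha3, Plxnb2 and Efna1 are blue across the 5 uninjured arrays, and Plxnc1, Sema4a and Sema4d are red there.

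Markers of other cells moved with this comparison. All 7 leukocyte markers, 8 of 15 macrophage markers and 5 of 10 neutrophil markers were called lower in callus, with median log2 fold changes of -2.35, -1.48 and -1.25. All 10 cartilage markers (median 2.77) and 4 of 6 osteoblast markers (2.47) were called higher. Among the 6 callus arrays of this comparison the leukocyte mean was lowest on the sham callus arrays of the surgery-injury-cell set (9.24 and 9.39) and highest on the mSSC array of conflicting surgery (12.3), and that same array had the highest Plxnc1 (10.33) and Sema4a (10.09). With the mean of the leukocyte, macrophage and neutrophil markers as a covariate, which takes most of the contrast with it, 1.25% of all genes and 1 of the 48 members, Epha3, were called (3.64, SE 0.61, adjusted p = 0.0296). In that fit Plxnc1 was at -0.95 (SE 0.84), Sema4a at -0.77 (SE 0.46) and Sema4d at -0.46 (SE 0.50), while Sema5a was at 2.70 (SE 0.76) and Nrp2 at 2.19 (SE 0.49). Among the members that rose, Ephb4 was at 0.39 in that fit against 1.48 without the covariate, Sema6a at 0.34 against 1.40, Plxna1 at 0.38 against 1.12, Sema4c at 0.22 against 0.87 and Ephb3 at 0.56 against 1.27. No endothelial marker was called. The part of these cells in the members' differences cannot be told apart from the injury itself in this design.

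Of the 48 genes, 42 had the same sign in mSSC and in mBCSP arrays fitted alone, the 22 called ones among them, which were called on those same arrays in one fit. The interaction of injury with population called none of the 48 genes, as it called 0% of all genes. At an unadjusted p under 0.05 that interaction had 0 members and 1.97% of all genes. With mSSC arrays alone 17 members and 25.8% of all genes were called, and with mBCSP arrays alone none, a fit in which no gene of the array was called. The largest interaction terms were 1.67 (SE 1.30) for Plxnb1, -1.63 (SE 1.43) for Sema3g, 1.25 (SE 0.84) for Sema5a, 1.09 (SE 0.88) for Epha3, -0.96 (SE 0.54) for Plxnd1 and -0.94 (SE 0.66) for Epha1. Efna2 gave 0.47 (SE 0.45), and its second probe set -0.38. These errors leave room for differences of more than 1 on the log2 scale.

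Between the sets of titles, the injury difference of 1 member differed at an adjusted p under 0.05, where 0.552% of all genes did. Sema3d was 4.99 higher in callus among the cell-injury arrays (SE 0.73) and 1.03 higher among the surgery-injury-cell arrays (SE 0.22), a difference of -3.90 (SE 0.62, adjusted p = 0.0288). The second probe set of Sema3d gave 0.27 for this difference and was not called. At the brightest probe set the uninjured arrays carried it. Those of the cell-injury set were both at the floor of 5.95, and those of the surgery-injury-cell set read 9.41, 9.48 and 9.74, while callus arrays read 10.004 and 11.87 in one set and 10.35 to 10.83 in the other. Sema3c had the same form, with 5.95 and 6.63 against 8.69, 9.51 and 10.38 in uninjured bone, and a difference of -2.81 (SE 0.68, adjusted p = 0.113). Its second probe set gave -0.36. Cartilage markers followed the same arrays, with a mean of 8.98 and 9.09 on the uninjured cell-injury arrays against 11.6 to 12.6 on the others, and 3 of 10 were called in the interaction. At an unadjusted p under 0.05 there were 7 members, against 13.3% of all genes, and of the 6 largest the remaining values were 2.51 (SE 1.19) for Plxnb1, 1.69 (SE 0.49) for Sema3b, -1.41 (SE 0.46) for Nrp2 and -1.34 (SE 0.59) for Epha1. Efna2 differed by 0.25 (SE 0.46). The second probe set of Plxnb1 gave -0.06, and the 3 of Sema3b ran from -0.06 to 1.69. Sema3e was not called at its brightest probe set. Its 4 probe sets ran from -3.97 to 0.14, and the fit of every probe set called 1 of them lower. Over the 48 tested genes 35 had the same sign in both sets, the 22 members called in one fit of both sets among them. The number of members called for a different injury effect between the sets changed when single arrays were left out.

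**Figure D4:**
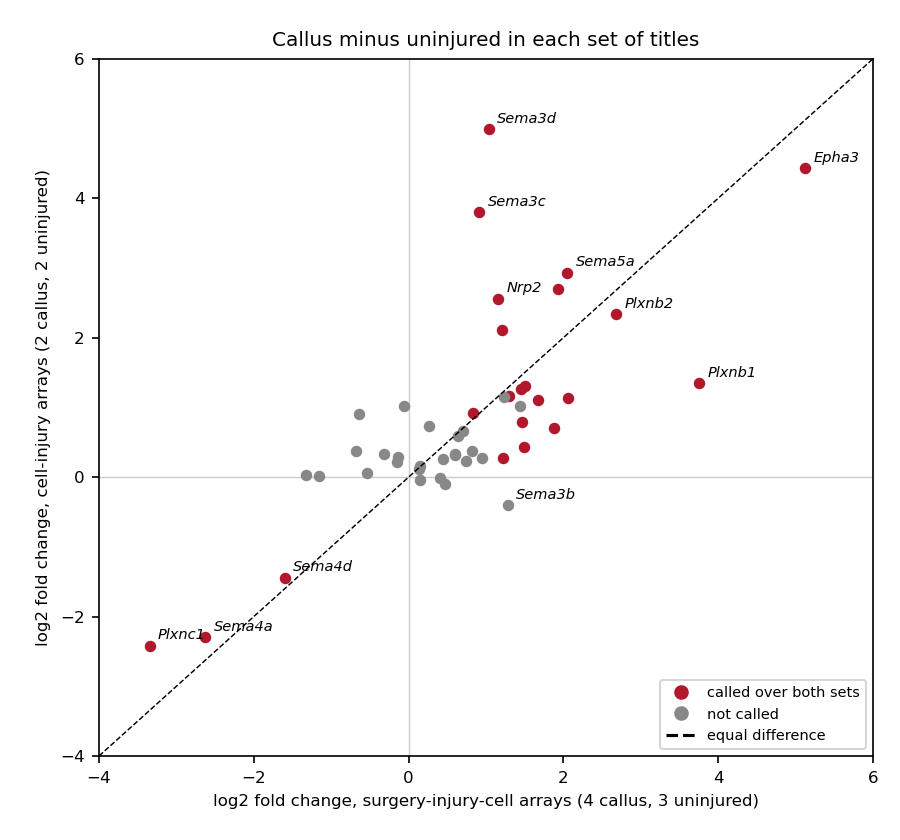
Log2 fold change between callus and uninjured bone for the 48 tested guidance genes, among the surgery-injury-cell arrays (horizontal) and the cell-injury arrays (vertical), with called members in red and a dashed line of equal difference. Epha3 lies near the line at 5.12 and 4.43, and Sema3d lies far above it at 1.03 and 4.99.

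Between mSSCs and mBCSPs no member passed the test, as no gene of the array did (0%), over all 17 arrays in a fit with group and set as terms. At an unadjusted p under 0.05 there were 9 members, 8 lower in mSSCs and 1 higher, against 9.66% of all genes. Sema6d, a ligand of plexin A1, had the smallest p, at -1.19 (SE 0.29, adjusted p = 0.338), and Plxna2 followed at -1.14 (SE 0.29, adjusted p = 0.338). Sema3g, a semaphorin of endothelial cells, had the largest difference, at -1.71 (SE 0.58, adjusted p = 0.416). Of the others, Plxnd1, a receptor of endothelial cells, lay at -0.74 (SE 0.23), Ephb4 at -0.69 (SE 0.26) and Sema3a at -0.76 (SE 0.40). Efna2 was at -0.07 (95% interval -0.38 to 0.25).

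In the 8 pairs of mSSC and mBCSP arrays that shared a group and set, Nrp2 and Sema4c were lower in mSSCs in 8, with differences from -0.18 to -1.04 and from -0.03 to -0.97, and Sema3g, Sema6d, Sema6b, Plxna2, Plxna4, Plxnb2 and Plxnd1 in 7. Efna4 and Epha7 were higher in mSSCs in 7 of the 8. The share of all genes with such agreement was not counted, so these counts are no result about the members. The mean of 6 marrow stroma and fat markers was also lower in mSSCs in 8 pairs. So was the mean of 5 genes that encode sort markers, Eng among them. Sema3g read 9.83, 10.68 and 11.19 on the mBCSP arrays of the surgery-injury-cell set and 5.98, 7.22 and 6.52 on their mSSC partners, whereas in the surgery-cell set the mBCSP arrays read 7.15 to 8.06 and the mSSC arrays 6.45 to 6.94. The pair of uninjured cell-injury arrays went the other way, 6.19 and 7.39. Plxna2 read 9.85, 9.77 and 11.11 against 8.53, 7.27 and 8.81 in the surgery-injury-cell set, and Sema6d 9.37, 9.84 and 11.13 against 8.34, 8.02 and 9.09. The mean of 15 endothelial markers was 10.7, 10.2 and 11.8 on those same mBCSP arrays and 7.37, 7.70 and 7.31 on their partners, with mSSC minus mBCSP from -2.51 to -4.45, against -0.65 to -1.27 in the surgery-cell set and 0.02 in the uninjured cell-injury pair. Of the 15 endothelial markers 14 were lower in mSSCs, with a median of -1.93, and none was called. Tek, which encodes the sorted-out Tie2, reached 11.70 on the mBCSP array of conflicting surgery, where Sema3g, Sema6d, Plxna2 and Plxnd1 had their highest values of all 17 arrays. The part of endothelial cells in these differences was not tested.

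**Figure D5:**
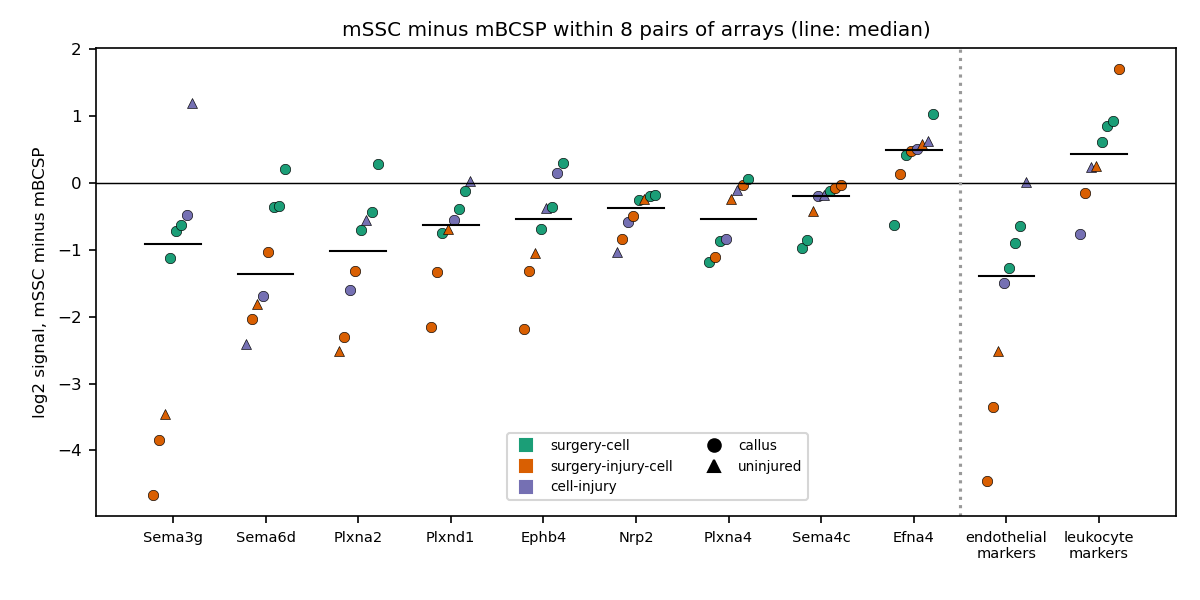
Difference in log2 signal between the mSSC and mBCSP arrays of each of 8 pairs, for the 9 guidance genes with an unadjusted p under 0.05 and, right of the dotted line, the means of the endothelial and leukocyte markers; colours give the set of titles, triangles uninjured bone and lines the median. Sema3g and the endothelial mean are lowest in the same 3 pairs, those of the surgery-injury-cell set.

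Ovariectomy gave no called member in callus, nor any called gene (0%), in a comparison that rests on the surgery-cell set with 1 mSSC and 1 mBCSP array in each arm. Without adjustment 3 members and 2.02% of all genes had a p under 0.05. Sema3e, a ligand of plexin D1, read 6.23 (mSSC) and 6.64 (mBCSP) in sham callus and 7.72 and 7.56 in OVX callus, a difference of 1.21 (SE 0.40, adjusted p = 1.0). Epha7 read 8.10 and 7.88 in sham and 8.75 and 8.57 in OVX callus (0.67, SE 0.26, adjusted p = 1.0). Plxnc1 read 8.71 and 7.81 in sham and 6.18 and 6.58 in OVX callus, -1.88 (SE 0.79, adjusted p = 1.0), and the median of the 7 leukocyte markers was -0.69 in the same contrast. Sema3g, Plxna3 and Efna1 completed the 6 largest, at -0.69 (SE 1.16), -0.67 (SE 0.40) and -0.66 (SE 0.45). Efna2 read 9.42 and 9.81 in sham and 8.97 and 9.18 in OVX callus, with a difference of -0.54 (95% interval -1.18 to 0.09). Its second probe set gave 0.04.

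With estradiol, OVX + E2 against OVX callus, no member was called and 0.0207% of all genes were. At an unadjusted p under 0.05 there were 3 members, against 2.29% of all genes. Epha7 read 7.96 in mSSC and 7.34 in mBCSP arrays, below both OVX arrays, a difference of -1.01 (SE 0.26, adjusted p = 0.781). Plxnc1 read 8.84 and 7.72 (1.90, SE 0.79) and Sema4d 8.24 and 7.67 against 7.08 and 6.29 (1.27, SE 0.53), both at an adjusted p of 1.0. All 7 leukocyte, 10 neutrophil and 5 tested osteoclast markers were also higher in these arrays, with medians of 1.86, 1.69 and 1.59. So were 14 of 15 macrophage markers, with a median of 1.42. The part of these cells in the values of Plxnc1 and Sema4d was not tested. The remaining 3 of the 6 largest were Sema6d at -0.53 (SE 0.58), Efna4 at 0.50 (SE 0.34) and Sema5a at -0.47 (SE 0.46). Over their probe sets Plxnc1 ran from 0.17 to 1.90 and Sema4d from 0.42 to 1.27. Efna2 read 9.14 and 9.45, a difference of 0.22 (95% interval -0.41 to 0.86), while its second probe set gave -0.36. The OVX arrays are shared with the comparison before it.

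OVX + E2 against sham callus called no member either, and 0.0207% of all genes. There were 2 members at an unadjusted p under 0.05 against 2.48% of all genes, Sema3e at 0.98 (SE 0.40) and Efna4 at 0.82 (SE 0.34). For Sema3e the E2 arrays stood apart from each other, 8.15 in mSSC and 6.68 in mBCSP, with the second close to its sham array at 6.64. The probe sets of Sema3e ran from -0.07 to 0.98 in this comparison. Plxna2 was at 0.71 (SE 0.59), Sema4d at 0.70 (SE 0.53), Sema3g at -0.67 (SE 1.16), Epha4 at -0.62 (SE 0.48) and Efna2 at -0.32 (SE 0.29).

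In uninjured bone, OVX against sham called no member and 0.145% of all genes, in a comparison that rests on 1 sham mSSC array of the surgery-injury-cell set. Without adjustment 4 members had a p under 0.05, against 7.76% of all genes. Sema5a read 9.73 (mSSC) and 9.69 (mBCSP) in OVX and 7.81 in that sham array, a difference of 2.0 (SE 0.58, adjusted p = 0.325), and the sham arrays of the cell-injury set read 6.97 and 7.38. Sema3c differed by 1.37 (SE 0.47), Plxna4 by -1.14 (SE 0.46) and Sema6c by 0.79 (SE 0.35). Nrp1, Sema4f and Sema4d were at 1.05 (SE 0.58), -0.99 (SE 0.64) and -0.89 (SE 0.66), and Efna2 at 0.01 (SE 0.36). Of the 10 cartilage markers 9 and of the 6 osteoblast markers 6 were also higher in OVX, with medians of 1.24 and 1.09. All 4 platelet, 3 erythroid and 5 B cell markers were lower, with medians of -2.27, -1.14 and -0.73, and the part of these cells in the members' values was not tested.

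Sham callus was measured in both the surgery-cell and the surgery-injury-cell sets, and there no member was called between the sets while 2.91% of all genes were. Without adjustment 6 members had a p under 0.05, against 15.3% of all genes. Sema6a came closest, at 11.17 (mBCSP) and 10.36 (mSSC) in the surgery-injury-cell set against 9.19 and 9.24 (1.55, SE 0.37, adjusted p = 0.0504). Sema3d read 10.62 and 10.83 against 8.75 and 9.42 (1.64, SE 0.44, adjusted p = 0.0798), and Sema3a 8.03 and 8.52 against 10.10 and 10.70 (-2.13, SE 0.80, adjusted p = 0.225). Plxnb1 was at 1.90 (SE 0.90), Sema4d at 1.24 (SE 0.53), Plxnc1 at -1.23 (SE 0.79), Sema3e at 0.93 (SE 0.40) and Efna2 at -0.74 (SE 0.29). Over their probe sets Plxnc1 ran from -1.42 to 0.58 and Sema3e from -0.60 to 0.93.

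Genes through which these receptors act were counted in callus beside the 17.5% of all genes called higher and the 14.8% called lower. Of 29 tested partners of semaphorin signalling, 8 were higher and 2 lower, with a median of 0.42. Those higher included Dpysl3 (3.34, SE 0.73) and Dpysl2 (1.27, SE 0.20), collapsin response mediators downstream of semaphorin 3A, the integrins Itga1 (2.55, SE 0.44) and Itgb1 (1.04, SE 0.21), which bind semaphorin 7A, and Rras (1.87, SE 0.23), a GTPase on which plexins act. Farp1, Mical2 and Rnd3 rose by 1.72, 0.87 and 1.60. Lower were Fes (-1.46, SE 0.39), a kinase of blood cells, and Arhgef11 (-1.35, SE 0.42), an exchange factor bound by B plexins. Of 22 tested partners of ephrins 4 were higher, Src (1.92), Ngef (1.79), Rgs3 (1.13) and Efr3a (0.62), and 4 lower, Adam10 (-1.44), the protease that cuts ephrins, Vav3 (-1.03), Sdcbp (-0.94) and Tiam1 (-0.92), with a median of 0.08, counts that lie near those shares over all genes.

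Slit, netrin and repulsive guidance genes, a guidance system that the choice of members left out, gave 8 higher and 0 lower of 21 tested, beside the same 17.5% and 14.8% of all genes, with a median of 0.59. Neo1, the neogenin receptor, rose by 2.81 (SE 0.45), the netrin receptors Unc5c and Unc5b by 2.66 (SE 0.49) and 2.13 (SE 0.30), Flrt2 and Flrt3 by 2.11 (SE 0.23) and 1.97 (SE 0.25), and Slit2, Slit3 and the Slit receptor Robo1 by 1.97 (SE 0.35), 1.17 (SE 0.28) and 1.75 (SE 0.30). Between mSSCs and mBCSPs and in the ovary surgery comparisons none of the genes of these 3 lists was called. Between the sham callus arrays of the 2 sets, L1cam (1.81), Vav3 (2.02) and Unc5b (1.62) were called higher and Flrt2 (-1.88) and Robo1 (-1.71) lower in the surgery-injury-cell set, and Dpysl3 differed between the sets in its injury difference (-4.45, SE 0.75, adjusted p = 0.0368).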

How the data were processed

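The authors hybridized amplified RNA of sorted cells to Affymetrix mouse expression arrays and deposited log2 expression values for 45101 probe sets. The submitters' processing notes name MAS5, the methods dChip and Gene Expression Commons, and which of these made the values is not settled. The deposited array medians were 7.67 to 7.88. Here the log2 values were quantile normalized, floored at the 20th percentile (log2 5.95) and filtered to probe sets at or above the 40th percentile (log2 7.20) on at least 2 arrays, and each gene was represented by its probe set of highest mean. Gene names came from the platform annotation, in which 34945 probe sets had 1 symbol, 932 several and 9160 none. Probe signals cannot be compared between genes, and the number of arrays limits the precision.

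Fits used limma 3.58.1 in R 4.3.3 (lmFit, eBayes with trend), with Benjamini-Hochberg adjustment over all 14504 genes tested. Genes at an adjusted p under 0.05 were called. The injury fit held 11 arrays, with injury, population and title form as terms. The other fits held all 17, with 7 groups of surgery and injury. The steps were tested on simulated data. Named are members called in any comparison, the 6 of largest change in each, Efna2 and, from the partner lists, called genes. The members and lists were chosen with earlier results of these data known. Alternatives changed the floor, filter, normalization, probe set choice, terms and arrays. Promoter bases are from RefSeq, GRCm38.p6.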

Additional observations from a re-analysis of the deposited data

Results flagged for a closer look

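Among the 4 sham callus arrays, Nrp1 had 1 array far from the others. The mBCSP array of the surgery-injury-cell set read a log2 signal of 12.11, while the other 3 began at 11.78, and the gap to its nearest neighbour was 0.878 of the whole range. The range itself was small, and 1 gene of 48 examined this way had such an array, where chance gives about 1 in 20. The injury difference of Sema3d differed between the 2 sets of titles by -3.90 on the log2 scale, by a test of the interaction itself. Its second probe set gave 0.27 and was not called. The uninjured cell-injury arrays were at the floor for Sema3d, and their cartilage marker means were the lowest of all arrays, at 8.98 and 9.09. The cause was not tested.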

How the results depend on the processing

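No called member changed direction under any alternative, with the fit of every probe set read at the probe set of the main fit. Another probe set of Sema3d had the opposite sign in the injury difference between sets, 0.27 against -3.90. Of the 22 members called between callus and uninjured bone, 1 was called with the blood marker mean as a covariate, 7 in the cell-injury arrays alone (7.96% of all genes) and 0 in the mBCSP arrays alone, and with every probe set tested 48 probe sets were called (30.7% of all probe sets tested). With the mSSC and mBCSP pairs as a random block 21 were called (27.5% of all genes). Leaving out 1 array in turn gave 20 to 29 called members of the 48 tested, while the share of all genes called ran from 24.8% to 41.1%. Fits of the surgery-injury-cell arrays alone, without and with ovary surgery as read from the titles, and of the cell-injury arrays were chosen after seeing the data. The first 2 called 24 and 25 members (34.5% and 39% of all genes). OVX against sham in uninjured bone called 3 members with no title form term and 2 with the title form as a random block (3.34% and 1.68% of all genes, against 0.145%), and 0 to 1 when 1 array was left out. Sham callus between the sets gave 1 with no floor and 1 with no trend, and 0 to 4 with 1 array left out, the 4 without either array of unstated surgery. The difference of the injury effect between sets was called for 2 probe sets with every probe set tested, 2 genes with the probe set of widest range, and 0 with no filter or with values as deposited, and for 0 to 2 with 1 array left out. For mSSC against mBCSP, OVX or OVX + E2 in callus and the interaction with population, every alternative run gave 0 members. The counts under alternatives for sham callus between the sets and for the injury effect between sets carry no share of all genes. Nor do those for OVX against sham in uninjured bone with 1 array left out. They cannot be read as results about the members alone. Where an arm was left with 1 array, that array is assumed to vary like the others. The labels carry no replicate numbers, so arrays were paired by shared group and set only. The 4 or fewer arrays behind each comparison of ovary surgery limit what differences could be seen. The causes of these changes were not tested.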
